A study of Homo sapiens with 6 samples.

Results

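The urea cycle and the breakdown of the aromatic amino acids were read from 9 of the 29153 genes listed for HepG2, an established human liver cancer line. The genes were chosen by name for their role, with earlier results of these data known. They are CPS1, NAGS, SLC25A15, OTC, ASS1, ASL and ARG1 of the urea cycle, with TAT and HPD of tyrosine breakdown. RNA sequencing compared 3 HepG2 libraries treated with a control hairpin lentivirus (shNC, here sh-NC) with 3 treated with a hairpin lentivirus against the long noncoding RNA LINC01977 (labelled sh3, here sh-LINC01977), all at 72 h. All 6 libraries came from the same line and both groups carried a lentiviral hairpin. The study's methods select cells that took up virus with puromycin. A single hairpin was used and the labels do not say that the libraries came from separate cultures, so p-values measure the spread between these libraries, which may be technical.

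Hepatocytes dispose of ammonia through the urea cycle. NAGS makes the activator of CPS1, which fixes ammonia in the mitochondrion, and OTC joins the product to ornithine brought in by the carrier SLC25A15. In the cytosol ASS1 and ASL build and split argininosuccinate to give arginine, which ARG1 cleaves to urea and ornithine. Tyrosine is broken down by TAT, HPD, HGD, GSTZ1 and FAH to fumarate and acetoacetate. Both pathways are features of the mature liver, and HepG2 cells are known for an incomplete urea cycle with little OTC and ARG1.

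Of the 9 genes, 8 had a mean FPKM (fragments scaled to transcript length and library size) of at least 0.5 over the 6 libraries and were tested with the 13452 genes past that level. In sh-LINC01977 cells CPS1 and HPD rose, while ASS1, ARG1 and TAT fell, each at an adjusted p under 0.05 by edgeR (quasi-likelihood, Benjamini-Hochberg adjusted). NAGS, SLC25A15 and ASL did not pass the test, and OTC was close to undetected. Of all tested genes, 15.1% passed, 7.05% higher and 8.07% lower, against 5 of these 8, with 2 higher and 3 lower. With the thresholds of the study's methods (at least 2-fold, unadjusted p up to 0.05), 1 of the 8 genes passed, ARG1, against 2.6% of all tested genes. ARG1 and TAT reached the expression filter only through their sh-NC libraries, so these counts are a description. A fit of all 29153 listed genes, with no filter, passed 5.36% of genes and 4 of the 9, with HPD lost. Of the calls among all tested genes 46.6% were higher with TMM scaling and 65.5% with library totals, and these 5 genes passed in the same direction under both.

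The 250 bases before a start site are shown for 2 genes that fell and 2 that rose, as sequence context for genes that moved in opposite directions. They are RefSeq windows of build GRCh38.p14, printed 5′ to 3′ on the gene's strand, and capitals mark matches, on either strand, to 5 motifs. The letters TATAA stand for the core element that places the start of transcription, and CCAAT for an upstream element bound by the factor NF-Y. The letters GGGCGG stand for the element bound by SP1 and its relatives, and CACGTG for the symmetric site of many helix-loop-helix factors. TTNNGCAA is a core often given for C/EBP factors.
ARG1, chr6:131572976-131573225, plus strand: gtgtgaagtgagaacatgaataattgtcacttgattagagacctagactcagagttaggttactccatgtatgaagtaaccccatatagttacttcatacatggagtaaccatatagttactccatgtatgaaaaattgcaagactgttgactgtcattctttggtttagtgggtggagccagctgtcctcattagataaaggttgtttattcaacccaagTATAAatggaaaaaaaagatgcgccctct
ASS1, chr9:130444711-130444960, plus strand: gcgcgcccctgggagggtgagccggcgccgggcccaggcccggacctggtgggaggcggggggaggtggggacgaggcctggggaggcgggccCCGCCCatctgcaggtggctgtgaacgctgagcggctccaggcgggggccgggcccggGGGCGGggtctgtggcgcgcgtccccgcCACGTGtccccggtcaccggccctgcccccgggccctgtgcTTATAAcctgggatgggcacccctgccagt
CPS1, chr2:210477435-210477684, plus strand: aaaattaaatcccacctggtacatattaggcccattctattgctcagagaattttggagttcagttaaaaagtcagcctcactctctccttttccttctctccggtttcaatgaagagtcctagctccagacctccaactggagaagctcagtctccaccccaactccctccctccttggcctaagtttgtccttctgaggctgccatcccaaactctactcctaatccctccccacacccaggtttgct
HPD, chr12:121858860-121859109, minus strand: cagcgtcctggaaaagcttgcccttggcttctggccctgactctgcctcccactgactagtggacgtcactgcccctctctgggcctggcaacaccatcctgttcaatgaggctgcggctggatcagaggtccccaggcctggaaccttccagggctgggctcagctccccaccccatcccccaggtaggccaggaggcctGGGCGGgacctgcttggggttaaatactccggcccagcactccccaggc

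Counted from the start site, with -1 the base before it, the TATAA of ARG1 began at -29, the CACGTG of ASS1 at -71 and the GGGCGG of HPD at -49. ASS1 had TTATAA near its start, which matches TATAA on both strands. The CPS1 window held none of the 5 motifs, and it is 1 of 3 windows listed for that gene. ASS1 and HPD have 2 windows each, and the windows not printed are not described here. Windows were matched for 8 of the 9 genes, and TATAA was in 3 of these 8 (OTC, ASS1 and ARG1) and in 18.9% of the 35116 windows of all genes. GGGCGG was in 5 of the 8 (NAGS, SLC25A15, ASS1, ASL and HPD) against 42.6% of all windows, CCAAT in 1 (ASL) against 32.0%, and CACGTG in 1 (ASS1) against 6.34%. TTNNGCAA was in 0 of the 8 and in 9.05% of all windows. Each of the 8 genes was read from 1 window, while the windows of all genes can include several for a gene. The shares are therefore of unlike units and were not tested against each other. GC content was 37.6% in the ARG1 window and 78.8% in that of ASS1, which both fell, and 48.4% in that of CPS1 and 64.8% in that of HPD, which both rose, with a median of 58% over all windows. The HPD window lay 4737 bases from the 5′ end of the deposited gene interval. A match is a run of letters and no binding was measured.

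The transcripts spanned a wide range of levels per length. By mean FPKM over the 6 libraries the order was HPD, ASS1, ASL, SLC25A15, CPS1, NAGS, TAT, ARG1 and OTC. HPD stood at rank 145 of the 29153 listed genes with 198 FPKM, ASS1 at rank 1142 with 29.2 FPKM and ASL at rank 1991 with 17.5 FPKM. SLC25A15 followed with 13.8 FPKM, CPS1 with 2.81 FPKM, NAGS with 1.76 FPKM, TAT with 0.662 FPKM and ARG1 with 0.515 FPKM. OTC, at 0.0393 FPKM, ranked 21362. Neighbours in this order had separate FPKM ranges over the 6 libraries except in 2 cases. CPS1 and NAGS overlapped in range, although CPS1 was above NAGS in 6 of 6 libraries. TAT and ARG1 overlapped, with TAT above ARG1 in 5 of 6 libraries.

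**Figure D1:**
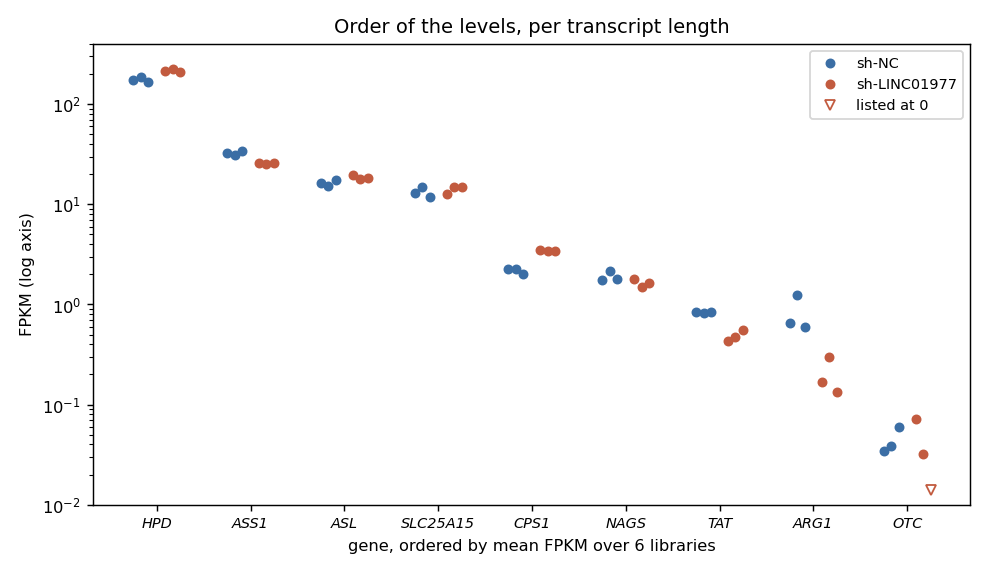
FPKM (log axis) of each gene in the 3 sh-NC (blue) and 3 sh-LINC01977 (red) libraries, each point a library and the open triangle a library listed at 0, in order of mean FPKM. HPD ranges from 169 to 224 FPKM over the libraries, while ARG1 ranges from 0.134 to 1.24 FPKM and OTC does not exceed 0.0715 FPKM.

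CPS1 (ENSG00000021826, chr2:210477682-210679107, plus strand, hg38) encodes carbamoyl-phosphate synthase, the entry step of the cycle. Its level was 30.1, 29.4 and 26.4 CPM in the 3 sh-NC libraries and 44.6, 43.5 and 42.9 CPM in those of sh-LINC01977, where CPM is the count scaled to the TMM-adjusted library total. Every sh-LINC01977 library was above every sh-NC library, and the sh-LINC01977 libraries lay close together. The level rose by 52.5%, for a log2 fold change of 0.61 (standard error 0.070, 95% interval 0.44 to 0.78, edgeR adjusted p = 0.00296). Per length the means were 2.17 ± 0.132 FPKM in sh-NC cells and 3.46 ± 0.0690 FPKM in sh-LINC01977 cells (SD, n = 3 each).

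NAGS (ENSG00000161653, chr17:44004546-44009063, plus strand), which makes N-acetylglutamate, the activator that CPS1 needs, had 6.35, 7.58 and 6.30 CPM in sh-NC cells and 6.09, 5.16 and 5.46 CPM in sh-LINC01977 cells. The groups were apart in CPM by a small margin and overlapped in FPKM. The log2 fold change was -0.28 (standard error 0.14, 95% interval -0.60 to 0.050, edgeR adjusted p = 0.225), which did not pass the test.

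SLC25A15 (ENSG00000102743, chr13:40789412-40810111, plus strand) encodes the carrier that brings ornithine into the mitochondrion. Its level was 30.7, 34.5 and 27.0 CPM in sh-NC cells and 28.4, 33.7 and 32.6 CPM in sh-LINC01977 cells. The groups overlapped, with a log2 fold change of 0.040, and the 95% interval from -0.23 to 0.31 bounds the difference at this depth (edgeR adjusted p = 0.848).

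OTC (ENSG00000036473, chrX:38352545-38421450, plus strand), the ornithine carbamoyltransferase, had counts of 4, 4 and 7 in sh-NC cells and of 8, 4 and 0 in sh-LINC01977 cells. The summed counts were 15 and 12, and the groups overlapped. A count of 0 in a library allows up to 3 counts where each count is an independent fragment. Over all genes and libraries a count of 4 occurred 8101 times, against 2780 for 3 and 1758 for 5, so 1 fragment may add several counts and the allowance may be larger. The fit of all listed genes gave a log2 fold change of -0.37 with a 95% interval from -3.52 to 2.78 (edgeR adjusted p = 0.921), so a difference in OTC was not detectable at this depth.

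ASS1 (ENSG00000130707, chr9:130444929-130501274, plus strand), argininosuccinate synthase, had 128, 120 and 130 CPM in sh-NC cells and 96.2, 94.3 and 93.7 CPM in sh-LINC01977 cells. The groups did not overlap, and the spread was smaller among the sh-LINC01977 libraries. The level fell by 24.7%, a log2 fold change of -0.41 (standard error 0.049, 95% interval -0.53 to -0.29, edgeR adjusted p = 0.00347). Per length it went from 32.7 ± 1.27 to 25.8 ± 0.456 FPKM (SD, n = 3 each). The 3 listed pseudogenes ASS1P10, ASS1P2 and ASS1P12 had 9, 49 and 170 counts over all libraries, of which the largest is 0.468% of the ASS1 count.

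ASL (ENSG00000126522, chr7:66075798-66093558, plus strand), argininosuccinate lyase, had 66.6, 60.6 and 70.4 CPM in sh-NC cells and 76.1, 69.9 and 69.0 CPM in sh-LINC01977 cells. The groups overlapped in CPM and were apart in FPKM. The log2 fold change was 0.12 (standard error 0.075, 95% interval -0.058 to 0.30, edgeR adjusted p = 0.324), which did not pass the test. The interval of AC068533.4 overlaps ASL on the same strand, with 271 counts over all libraries, and the pseudogene ASLP1 had 23.

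ARG1 (ENSG00000118520, chr6:131573144-131584332, plus strand), the liver arginase that releases urea, had the largest fold change of the 9 genes. Control libraries held 92, 152 and 87 counts and knockdown libraries 23, 45 and 17, or 1.69, 3.08 and 1.48 CPM against 0.418, 0.739 and 0.330 CPM. The groups did not overlap, and the second library was the highest in each group. ARG1 was 4.15-fold lower, a log2 fold change of -2.05 (standard error 0.43, 95% interval -3.08 to -1.03, edgeR adjusted p = 0.0228). Its mean of 0.515 FPKM lay just above the filter, with 0.830 ± 0.357 FPKM in sh-NC and 0.200 ± 0.0848 FPKM in sh-LINC01977 cells (SD, n = 3 each). With 1 library left out the adjusted p from edgeR ran from 0.0315 to 0.0779, and the call was lost without the second sh-NC library (0.0561), the first sh-LINC01977 library (0.0779) or the third (0.0695).
ARG1 overlaps MED23, a Mediator subunit gene on the minus strand, over chr6:131573966-131584332, and the sources used here do not say whether counting used strand. MED23 had 2134, 2003 and 2266 counts in sh-NC cells and 2555, 2852 and 2413 in sh-LINC01977 cells. MED23 rose, with a log2 fold change of 0.24 (edgeR adjusted p = 0.0244), the opposite direction to ARG1.

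TAT (ENSG00000198650, chr16:71565660-71577130, minus strand), tyrosine aminotransferase, starts tyrosine breakdown and is a classic glucocorticoid-responsive liver gene. Control libraries held 318, 277 and 338 counts and knockdown libraries 154, 192 and 185, or 5.84, 5.61 and 5.74 CPM against 2.80, 3.15 and 3.59 CPM. The groups did not overlap, and the sh-NC libraries were nearly equal. TAT was 1.80-fold lower, a log2 fold change of -0.85 (standard error 0.15, 95% interval -1.20 to -0.50, edgeR adjusted p = 0.0120). Per length it went from 0.837 ± 0.0143 to 0.486 ± 0.0658 FPKM (SD, n = 3 each). The antisense gene TAT-AS1, which overlaps TAT, had 126 counts over all libraries, 8.61% of the TAT count.

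HPD (ENSG00000158104, chr12:121839527-121863596, minus strand), the dioxygenase that makes homogentisate in the step after TAT, was the most abundant of the 9 transcripts. Its level was 499, 527 and 468 CPM in sh-NC cells and 582, 609 and 555 CPM in sh-LINC01977 cells. The groups did not overlap, but the highest sh-NC library came near the lowest sh-LINC01977 library. The level rose by 16.8%, a log2 fold change of 0.22 (standard error 0.058, 95% interval 0.086 to 0.36, edgeR adjusted p = 0.0464). That call lay close to the threshold. With the fit of all listed genes the edgeR adjusted p was 0.0875. With 1 library left out that adjusted p ran from 0.0488 to 0.128, passing in 1 of 6 such fits, that without the second sh-NC library. The interval of AC079360.1, on the plus strand, overlaps HPD over chr12:121856259-121857059, with 26 counts over all libraries.

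**Figure D2:**
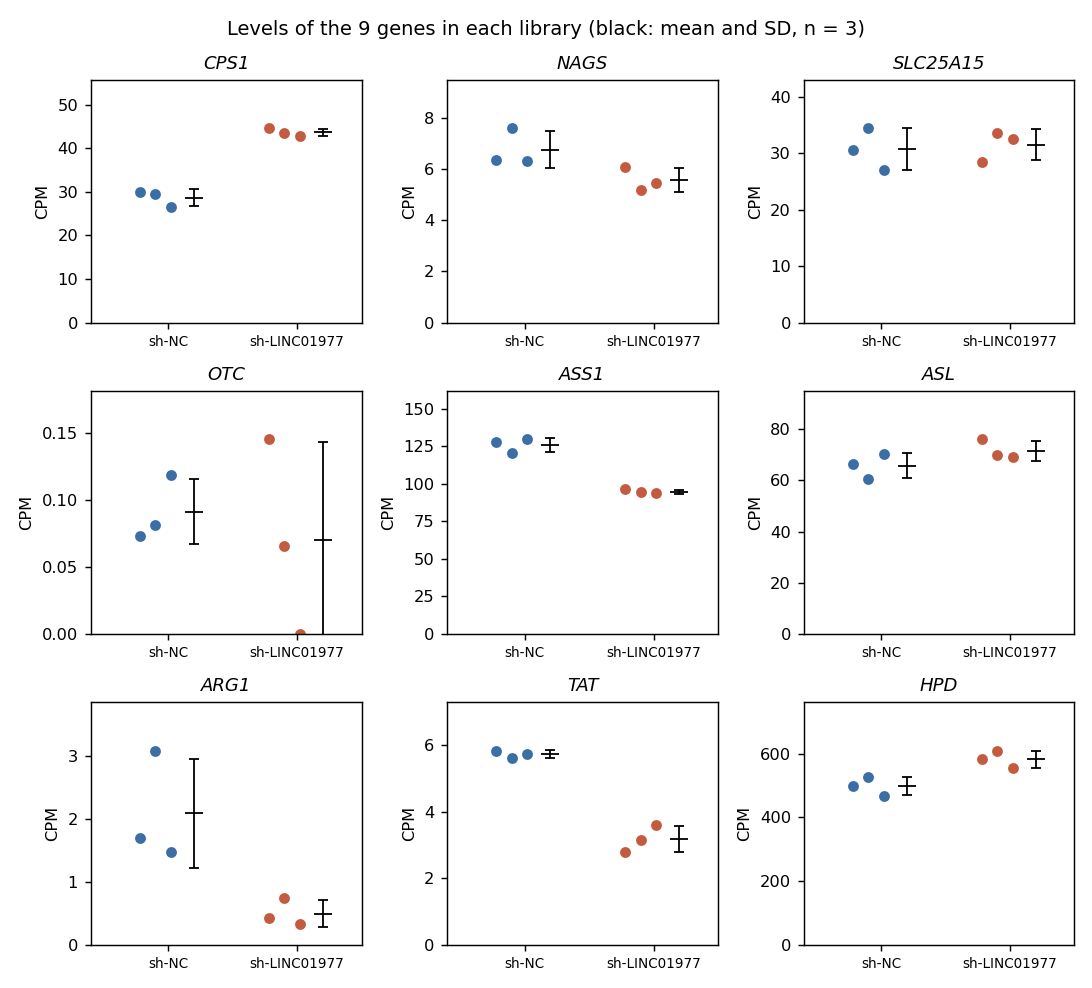
CPM of each gene (1 panel a gene, each with its own axis from 0) in sh-NC (blue) and sh-LINC01977 (red) libraries, points being libraries and black marks the mean with its SD (n = 3). CPS1 and HPD sit higher and ASS1, ARG1 and TAT lower in all 3 sh-LINC01977 libraries than in any sh-NC library. NAGS is also lower in all 3, by a small margin, and did not pass the test. OTC, SLC25A15 and ASL overlap.

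In CPM, 6 of the 8 tested genes did not overlap between groups (CPS1, NAGS, ASS1, ARG1, TAT and HPD), where 37.1% of all tested genes did not. For these 6 the exact two-sided permutation test gave p = 0.1, the smallest that 3 libraries against 3 allow, and it gave exact p = 0.3 for ASL, 0.8 for SLC25A15 and 0.7 for OTC. The median log2 fold change of the 8 genes was -0.12, beside -0.0010 for all tested genes, and the median absolute log2 fold change was 0.34, beside 0.18. These values include ARG1 and TAT, which reached the filter only through sh-NC. Without both, 4 of 6 genes did not overlap, and the medians were 0.081 and, of absolute values, 0.25, so the sign of the median rests on those 2 genes. The 9 genes lie on 9 chromosomes.

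**Figure D3:**
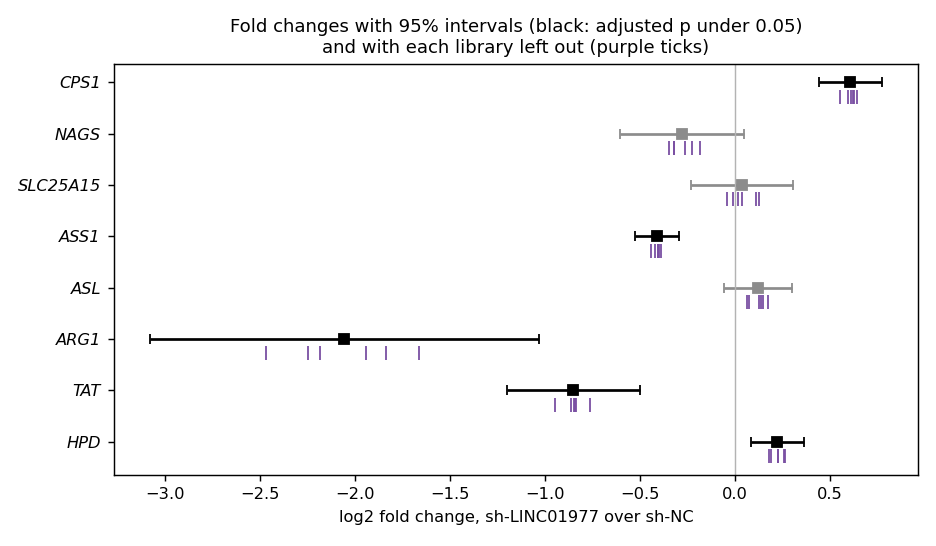
Log2 fold change (sh-LINC01977 over sh-NC) of the 8 tested genes with 95% intervals from edgeR, black where the adjusted p is under 0.05, and purple ticks for the fits without each library in turn. CPS1, ASS1 and TAT keep narrow ranges, ARG1 runs from -2.47 to -1.66, and the ticks of SLC25A15 fall on both sides of 0.

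The relation between steps of a pathway was read as ratios of FPKM within a library, a quantity that does not depend on the scaling between libraries. The ratio of CPS1 to ASS1 was 0.0664 ± 0.00623 in sh-NC and 0.134 ± 0.000973 in sh-LINC01977 cells (SD, n = 3 each), 2.03-fold higher. The ratio of ASL to ASS1 went from 0.499 ± 0.0190 to 0.721 ± 0.0285, and that of ARG1 to ASL from 0.0520 ± 0.0263 to 0.0108 ± 0.00497 (SD, n = 3 each). For tyrosine breakdown, the ratio of HPD to TAT was 213 ± 16.2 in sh-NC and 453 ± 67.9 in sh-LINC01977 cells, 2.12-fold higher. None of these 4 ratios overlapped between groups, each with exact permutation p = 0.1, the smallest possible here. Each ratio holds a gene already called above, so this separation largely follows from those calls and is a description. ARG1 and TAT, which enter these ratios, reached the expression filter only through sh-NC. The share of such separations among other gene pairs was not computed. The summed FPKM of the 7 urea cycle genes was 67.3 ± 0.462 in sh-NC and 63.9 ± 0.513 in sh-LINC01977 cells (SD, n = 3 each). ASS1 made up 46.8% to 50.1% of it in sh-NC libraries and 39.9% to 40.7% in sh-LINC01977 libraries. Unlike a ratio, the sum depends on the scaling between libraries, and FPKM holds no TMM scaling. TMM factors were 0.966 to 0.987 in sh-NC and 1.01 to 1.04 in sh-LINC01977 libraries.

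Among 12 other genes of aromatic amino acid breakdown and its pterin cofactor, 11 were listed and tested, of which 4 fell and 1 rose, with a median log2 fold change of -0.12. Over all tested genes, the background for this list and the 3 that follow, 8.07% fell and 7.05% rose, with a median log2 fold change of -0.0010. With library totals in place of TMM scaling that median was 0.065, and the lists were read with TMM scaling only. HGD, which follows HPD, fell from 44.8 ± 2.66 to 32.8 ± 1.24 FPKM (SD, n = 3 each), or a log2 fold change of -0.51 (edgeR adjusted p = 0.00231). Of the 6 listed genes that make or recycle the cofactor tetrahydrobiopterin, 3 fell, with log2 fold changes of -0.52 for GCH1, -0.46 for SPR and -0.33 for QDPR (edgeR adjusted p 0.0267, 0.0163 and 0.0153). The other 3 did not pass, with log2 fold changes of 0.11 for PTS, 0.18 for PCBD2 and -0.12 for PCBD1 (edgeR adjusted p 0.402, 0.494 and 0.189). FAH, the final enzyme, rose by a log2 fold change of 0.23 (edgeR adjusted p = 0.0396). It did not pass in the fit of all listed genes (edgeR adjusted p = 0.0983). GSTZ1, GOT1 and GOT2 did not pass the test either. Along tyrosine breakdown, TAT and HGD were thus lower, and HPD and FAH higher, in sh-LINC01977 cells with the filtered fit. In the fit of all listed genes TAT and HGD still passed, and HPD and FAH did not.

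**Figure D4:**
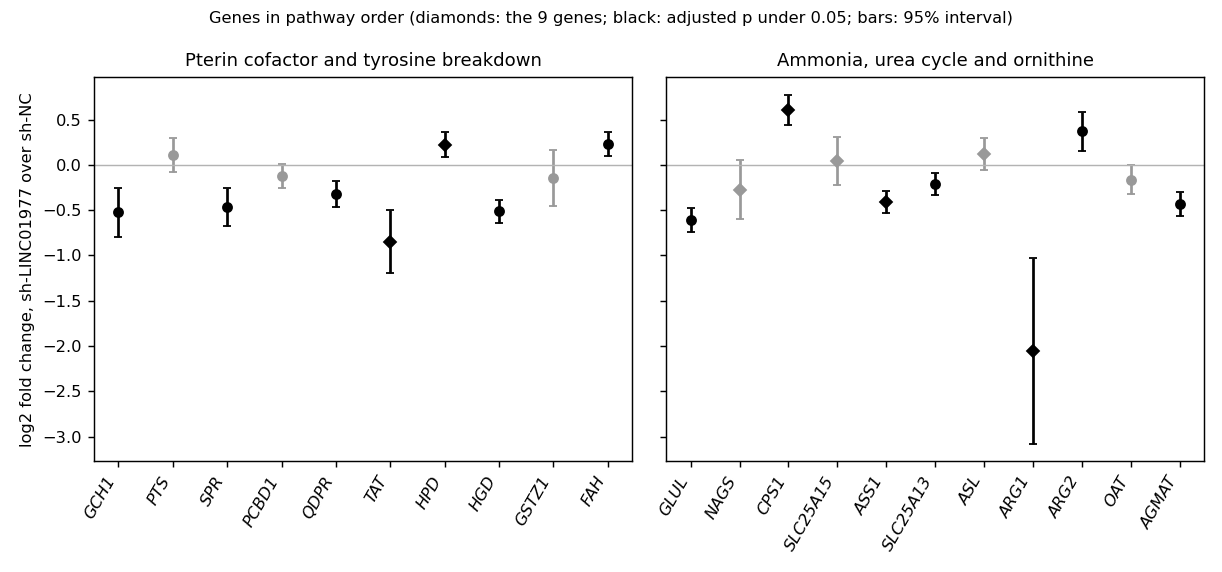
Log2 fold change with 95% interval of genes of the pterin cofactor and of tyrosine breakdown (left) and along ammonia handling, the urea cycle and ornithine use (right), diamonds for the 9 genes (OTC, untested, is not drawn) and black for an adjusted p under 0.05. TAT and HGD lie below 0 and HPD and FAH above it. On the right, ASS1 and ARG1 lie below 0 and CPS1 and ARG2 above it. HPD, FAH and ARG2 did not pass in the fit of all listed genes.

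Of 23 other genes of ammonia, ornithine and proline handling, 21 were listed and 19 tested, of which 6 fell and 1 rose, with a median log2 fold change of -0.16. GLUL, the glutamine synthetase that is the liver's other route for ammonia, fell from 24.5 ± 1.35 to 16.8 ± 0.927 FPKM (SD, n = 3 each), or a log2 fold change of -0.61 (edgeR adjusted p = 0.00146). AGMAT, related to the arginases, and PRODH2, a hydroxyproline dehydrogenase, had log2 fold changes of -0.43 and -0.65 (edgeR adjusted p 0.00470 and 0.0166). CA5A, the mitochondrial carbonic anhydrase that supplies bicarbonate to CPS1, had -0.48 on the log2 scale, and ALDH18A1 and SLC25A13, the aspartate carrier citrin, had -0.23 and -0.21 (edgeR adjusted p 0.0282, 0.0337 and 0.0349). ARG2, the mitochondrial arginase, went from 11.6 ± 0.854 to 15.7 ± 1.59 FPKM (SD, n = 3 each), or a log2 fold change of 0.37 (edgeR adjusted p = 0.0381), and is named here after its values were seen. In the fit of all listed genes ARG2 did not pass (edgeR adjusted p = 0.0858). Per length ARG2 was above ARG1 in the mean of both groups. The remaining 12 tested genes, among them OAT and GLUD1, did not pass.

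Of 31 genes of other liver amino acid pathways, 29 were listed and 22 tested, of which 7 fell and 1 rose, with a median log2 fold change of -0.19. AGXT, which detoxifies glyoxylate, fell from 5.16 ± 0.0560 to 1.49 ± 0.0398 FPKM (SD, n = 3 each), or a log2 fold change of -1.85 (edgeR adjusted p = 1.8e-04). BHMT2 and SARDH, of methyl-group metabolism, had log2 fold changes of -0.71 and -0.38, and the alanine aminotransferase GPT2 had -0.32 (edgeR adjusted p 0.00213, 0.0215 and 0.0170). In the kynurenine pathway of tryptophan, AFMID, the formamidase, had a log2 fold change of -0.54 and KYNU, the kynureninase, of 0.54 (edgeR adjusted p 0.00144 and 0.00165).

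Of 16 transcription factors, coactivators and receptors known to act on such liver genes, 15 were listed and tested, of which 6 fell and 1 rose, with a median log2 fold change of -0.25. NR1H4, the bile acid receptor, went from 23.1 ± 1.74 to 8.94 ± 1.22 FPKM (SD, n = 3 each), or a log2 fold change of -1.43 (edgeR adjusted p = 8.7e-04). PPARGC1A, a coactivator of the fasting response, had -1.02 and HNF4A, a central hepatocyte factor, -0.55 on the log2 scale (edgeR adjusted p 0.00287 and 0.00715). FOXA1, CEBPA and CEBPB had -0.34, -0.22 and -0.41 (edgeR adjusted p 0.00705, 0.0230 and 0.0499). SP1, named after its values were seen, rose by 0.25 and passed at the edge of the threshold in edgeR. NR3C1, the glucocorticoid receptor, had a log2 fold change of -0.25 and did not pass (edgeR adjusted p = 0.299). What part these changes have in those of the 9 genes was not tested.

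**Figure D5:**
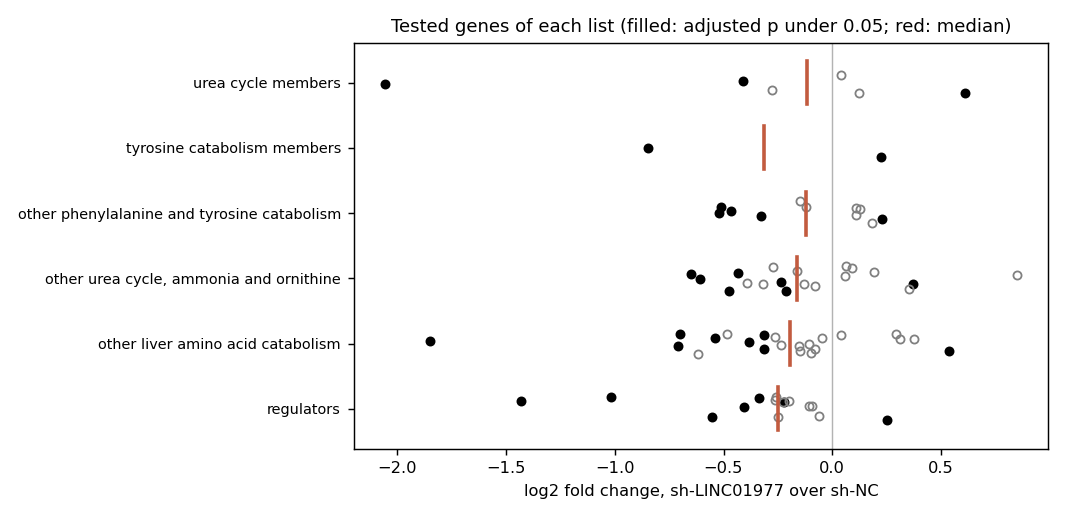
Log2 fold change of every tested gene in the 2 groups of chosen genes and the 4 lists, filled where the adjusted p from edgeR is under 0.05, with the median of each list as a red bar. With TMM scaling the medians of the 4 lists lie between -0.25 and -0.12, and each list holds filled points on both sides of 0.

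Total counts were between 49929024 and 60441515 per library. Correlations of log2 CPM were 0.985 to 0.987 within a group and 0.977 to 0.979 across groups, and no library stood apart. The targeted LINC01977 had 4, 0 and 16 counts in sh-NC cells and 0, 0 and 4 in sh-LINC01977 cells, so its knockdown was not detectable at this depth (edgeR adjusted p = 0.580 over all listed genes), and groups rest on the labels. Where 8.07% of all tested genes fell and 7.05% rose, 6 of the 9 hepatocyte markers fell and 1, APOA2, rose. All 9 were expressed. Their summed FPKM was 4339 to 4634 in sh-NC and 3708 to 3802 in sh-LINC01977 libraries, and in bulk RNA fewer cells of a type and less RNA per cell cannot be told apart. Of 8 fibroblast markers 5 were listed, with a summed 2.88 to 3.96 FPKM in sh-NC and 5.50 to 7.57 FPKM in sh-LINC01977 libraries. Most of that sum was COL1A1, with means of 2.72 FPKM in sh-NC and 4.72 FPKM in sh-LINC01977 cells. COL1A1 had a log2 fold change of 0.73 and did not pass (edgeR adjusted p = 0.0504). PDGFRB rose, and COL3A1, PDGFRA and THY1 were at or near 0. The 3 endothelial markers listed summed to under 0.441 FPKM in every library. Of 5 blood markers 4 were listed, with a sum of 10.6 to 13.2 FPKM in sh-NC and 14.2 to 16.5 FPKM in sh-LINC01977 libraries that was mostly CD68, and PTPRC was at or near 0. The 4 bile duct markers summed to 218 to 239 FPKM in sh-NC and 305 to 307 FPKM in sh-LINC01977 libraries, with KRT19 higher and SOX9 lower. The fetal liver and hepatoma markers AFP and GPC3 summed to 1620 to 1761 FPKM in sh-NC and 1426 to 1465 FPKM in sh-LINC01977 libraries. AFP fell, with a log2 fold change of -0.41 (edgeR adjusted p = 0.00169), and GPC3, at 0.074, did not pass (edgeR adjusted p = 0.524). The part of these differences in the levels of the 9 genes was not tested.

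The transcripts whose log2 CPM ran most closely with each of the 3 called genes of largest fold change were found by Pearson correlation over the 6 libraries, as a description of points that share the same 2 groups. Closest to ARG1 were MAPK3 (r = 0.997) and MT-RNR1 (r = 0.996), and 122 genes were above 0.95. Closest to TAT were SLC35E3 (r = 0.999) and CAPS (r = 0.999), among 434 genes above 0.95. Closest to CPS1 were ATP6AP1L and POLA2 (r = 0.999 for the latter), among 524 genes above 0.95. Among the chosen genes themselves, r was 0.855 between ARG1 and TAT, 0.952 between ASS1 and TAT and -0.980 between CPS1 and ASS1.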

How the data were processed

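RNA from 3 sh-NC and 3 sh-LINC01977 HepG2 libraries was measured by sequencing. The deposited counts are whole-number, unnormalized values for each gene. The FPKM values the authors deposited are scaled to transcript length and library size. The submitters' processing notes name bcl2fastq 2.0, HISAT2, StringTie, DESeq2, limma and hg38, and which tool did the counting is not given in the sources used here. The deposited table also holds KEGG annotation.

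Counts were tested with edgeR 4.0.16 in R 4.3.3 (quasi-likelihood test, TMM, group as the only term, Benjamini-Hochberg adjustment) over the 13452 genes at or above a mean FPKM of 0.5. OTC and LINC01977 were read from the same fit of all 29153 genes. The edgeR step was tested on simulated data. An exact permutation test served for single genes (scipy 1.17.1). Correlations used log2(CPM + 0.5), with scaled counts as input. Promoter windows came from RefSeq GRCh38.p14, matched to hg38 genes by symbol and nearest start.

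The genes and lists were chosen with earlier results of these data known. Named were all 9 genes, their overlapping genes and pseudogenes, the 2 genes most correlated with each of the 3 called genes of largest fold change, and up to 6 genes a list at an adjusted p under 0.05, by smallest p. 1 gene of these lists is not reported here. Others are named as chosen after their values were seen. Alternatives were RLE size factors, library totals, no filter, a mean FPKM of at least 1, DESeq2 1.42.0, limma 3.58.1 on log2(FPKM + 0.1), log2(FPKM + 1) and log2(FPKM + 0.01), counts divided by 4 (since counts of 4 and 8 were frequent), a replicate block and leaving out each library. Totals of 49929024 to 60441515 set the precision, and a floor of 3 counts holds where each count is 1 fragment. Intervals at 95% are from edgeR.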

Additional observations from a re-analysis of the deposited data

How the results depend on the processing

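CPS1, ASS1 and TAT kept their direction and an adjusted p under 0.05 in all alternatives that gave a value (16, 16 and 15 of them). NAGS and ASL kept their direction and did not pass in any of 16. Raising the filter to a mean FPKM of at least 1 leaves out ARG1 and TAT, so that 3 of the genes passed and 0 were past 2-fold. Of all 11569 genes tested with that filter, 1985 passed. On log2(FPKM + 1) with limma also 0 were past 2-fold, since that pseudocount shrinks the change of a gene as low as ARG1. Without a filter HPD had a log2 fold change of 0.21 and an edgeR adjusted p of 0.0875, over more genes tested. Leaving out each library in turn, 3 to 4 of the genes passed (and 1176 to 1398 of all tested genes, against 2033 with all libraries), and the log2 fold change ran from -2.47 to -1.66 for ARG1, from 0.18 to 0.27 for HPD, from -0.042 to 0.13 for SLC25A15 and from -1.40 to 0.18 for OTC. SLC25A15 changed sign without the third sh-NC library (-0.042) or the second sh-LINC01977 library (-0.0085), and OTC without the third sh-LINC01977 library (0.18). The cause was not tested. Over all alternatives ARG1 ran from -2.47 to -0.59. Correlations of the deviations of same-numbered libraries were -0.034, 0.0051 and 0.061, so no shared deviation was visible. The labels do not say whether same-numbered libraries were prepared together. With the replicate block 5 of the genes and 1390 of all tested genes passed, against 2033 without it. DESeq2 called 2845 of 13452 genes, library totals 2223 and the limma scales 1988 to 2019. With library totals, DESeq2 or any limma scale the same 5 genes passed. DESeq2 gave no adjusted p for OTC. ARG1, TAT and OTC, with the lowest counts, are the values most limited by depth.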

Other observations

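Beyond the lists above, the KEGG annotation deposited with the counts puts 32 listed genes in tyrosine metabolism, of which 22 were tested, 5 fell and 4 rose, where 8.07% of all tested genes fell and 7.05% rose. DBH and TAT reached the expression filter only through sh-NC, and of the other 20 tested genes 3 fell and 4 rose. This set was looked at after values were seen. On the catecholamine side, DDC, the aromatic amino acid decarboxylase, went from 8.91 ± 0.354 to 4.48 ± 0.670 FPKM (SD, n = 3 each), or -1.05 on the log2 scale (edgeR adjusted p = 0.00301). DBH, the dopamine hydroxylase, was low at 0.730 ± 0.0695 and 0.355 ± 0.0498 FPKM (SD, n = 3 each), with a log2 fold change of -1.10 (edgeR adjusted p = 0.0138, or 0.0254 in the fit of all listed genes). MAOB, a monoamine oxidase, rose by 0.55 on the log2 scale, and the aldehyde dehydrogenase ALDH3A1 by 2.04, from 0.710 ± 0.0657 to 3.10 ± 0.317 FPKM (SD, n = 3 each; edgeR adjusted p 0.00235 and 6.9e-04). ADH6, an alcohol dehydrogenase, had a log2 fold change of -0.72 (edgeR adjusted p = 0.00245). KEGG's arginine biosynthesis set held 21 listed and 17 tested genes, of which 4 fell and 3 rose, and 3 and 3 without ARG1, which also passed only through sh-NC. The gene called there that is in none of the lists above was the nitric oxide synthase NOS3, with a log2 fold change of 0.49 (edgeR adjusted p = 0.0180).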
